A study of Rattus norvegicus with 6 samples.

Results

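The genes that make fatty acids and build them into glycerolipids were examined in PC12 cells after knockdown of NQO1, a flavoenzyme that reduces quinones. Members were the protein-coding genes of the Elovl, Acsl, Agpat, Lpin, Fads and Hacd families with a numbered symbol, together with Srebf1, Acly, Acaca, Acacb, Fasn, Scd2, Olah, Mid1ip1, Gpam, Dgat1, Dgat2, Tecr, Hsd17b12 and Acss2. The names Scd, Thrsp and Mlxipl were also searched and matched no symbol, and the desaturase Scd1 is given beside the members. The search gave 43 rows with 42 symbols among the 18746 genes of the count table, because Elovl6 had 2 rows. A filter on low counts left 39 of the 43 rows for the tests. Elovl2, Fads6, Hacd4 and the row ENSRNOG00000010468 of Elovl6 did not pass it, with at most 15 reads in any library.

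PC12 is a cell line from a tumor of the rat adrenal medulla. In the siNQO1 group (3 samples) the cells were transfected with an siRNA against NQO1, and in the siCtrl group (3 samples) with a nontargeting siRNA, while the sample labels name an shRNA and a control plasmid for the same groups. Both groups were grown alike in medium with serum and received the same lipofection reagent, the cells for RT-qPCR were taken at 48 h, and a harvest time for the sequenced cells was not found in the sources used here. Polyadenylated RNA was sequenced, and reads counted in genes numbered 28873824 to 39467230 per library. The study speaks of biological replicates without saying whether these were separate cultures, and the p-values speak only for the spread among these 6 libraries.

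Nqo1 was lowered as labelled, with 80.8, 75.2 and 77.7 FPKM (fragments scaled to transcript length and to the mapped reads of the library) in siNQO1, against 368.6, 320.5 and 345.3 FPKM in siCtrl. Its log2 fold change was -2.13 (SE 0.066, adjusted p = 1.54e-06). Of the siCtrl libraries, replicate 2 was the most like siNQO1. Across the 12420 genes tested, its log2 CPM (reads scaled to the library total) correlated with those of siCtrl replicates 1 and 3 at 0.986 and 0.989, against 0.993 between these 2 libraries and 0.994 between siNQO1 libraries, and genes are not independent replicates. With the siNQO1 libraries it correlated at 0.989 to 0.990, above its values with both other siCtrl libraries. The other siCtrl libraries correlated with siNQO1 at 0.984 to 0.989. Without siCtrl replicate 2 the groups thus lie further apart from the outset. Over all genes, 16.1% were then lower and 17.2% higher at an adjusted p under 0.05, against 7.38% and 5.27% with all libraries. Members whose call changes without siCtrl replicate 2 are given in both forms, to be read beside these shares. Of 10 chromaffin cell markers 8 had a row, and only the granule protein Scg2 exceeded a mean of 1 FPKM. The markers Th, Dbh, Chga and Chgb stayed at or below 0.12 FPKM in every library. Scg2 was itself lower, with 118.8, 109.6 and 108.0 FPKM in siNQO1, against 165.4, 172.3 and 174.8 FPKM in siCtrl (log2 fold change -0.59, adjusted p = 0.000836). The Schwann cell markers Sox10, S100b and Erbb3 were abundant. Sox10 had 192.5 to 207.5 FPKM in siNQO1 and 198.5 to 232.8 FPKM in siCtrl (log2 fold change -0.10, adjusted p = 0.395), while S100b and Erbb3 were lower in siNQO1 (log2 fold changes -0.45 and -0.43, adjusted p = 0.00329 and 0.00583). Of the markers of adipocytes, whose own fatty acid synthesis is high, 6 of 7 had a row, with summed levels of 4.92 to 5.18 FPKM in siNQO1 and 5.20 to 5.83 FPKM in siCtrl. Adipoq made up nearly all of this sum, and Plin1, Cidec, Lep, Pparg and Fabp4 were at most 0.07 FPKM. Fibroblast markers summed to 49.8 to 53.2 FPKM in siNQO1 and 53.8 to 53.9 FPKM in siCtrl, mostly from Pdgfra, which was not called (log2 fold change -0.10), while Pdgfrb was higher, with 3.77 to 4.0 FPKM in siNQO1 and 2.56 to 3.16 FPKM in siCtrl (log2 fold change 0.45, adjusted p = 0.0160). The markers of hepatocytes, macrophages and endothelial cells summed to at most 4.99 FPKM in any library. The part of these markers in the results below was not tested.

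In animal cells, fatty acids are made from citrate that leaves the mitochondrion. Acly splits the citrate to acetyl-CoA, Acaca and Acacb carboxylate this to malonyl-CoA, and Fasn joins the units into a saturated chain, which elongases lengthen and desaturases give their cis bonds. Acyl-CoA synthetases activate free fatty acids, and acyltransferases, lipins and diacylglycerol acyltransferases then place the chains on glycerol to form phospholipid precursors and triglycerides. SREBP-1, the product of Srebf1, is the transcription factor best known for switching on this pathway, and in neural cells much of the product serves membranes.

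After NQO1 knockdown, 6 of the 39 members tested were lower and 0 were higher at an adjusted p under 0.05. The 6 were the thioesterase Olah, the transcription factor Srebf1, the acyl-CoA synthetase Acsl6, the desaturase Scd2, the citrate lyase Acly and the acyltransferase Agpat5. They made up 15.4% of the members tested, whereas 7.38% of all 12420 genes tested were lower (917 genes) and 5.27% were higher (654 genes). The list itself was not tested. At an unadjusted p under 0.05, 11 members were lower and 5 were higher, beside 28.95% of all genes tested in either direction. This share was not split by direction, so the 11 and 5 only describe the members. The other tools and settings run on all 6 libraries called 3 to 8 members lower and 0 higher. Of all genes they called 4.82% to 10.8% lower and 4.08% to 5.98% higher. DESeq2 called 7 lower, without Acsl6 and with Agpat1 and Lpin2. Only Olah also passed a fold of 2, which 0.193% of all genes did in the lower direction and 0.242% in the higher direction.

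The members as a whole moved little. Their median log2 fold change was -0.05, against 0.01 for all genes tested, and the median size of the change without its sign was 0.155 for members and 0.156 for all genes. The log2 fold change was below 0 for 25 members and above 0 for 14, whereas it was below 0 for 48.3% of all genes tested. Among members it ran from -1.32 for Olah to 0.54 for the desaturase Fads3. In CPM, the siNQO1 and siCtrl libraries did not overlap for 14 of the 39 members (35.9%), 11 of them lower and 3 higher, against 34.2% of all genes tested. The share of all genes was not split by direction, so the split of the members is no result about them. In bulk RNA of this kind, fewer cells that carry a transcript and less of it per cell cannot be told apart. Without siCtrl replicate 2, 13 of 40 members tested were lower (32.5%) and 1 was higher, beside 16.1% and 17.2% of all genes. When each of the other libraries was left out in turn, 1 to 4 members were lower and 0 were higher. Of all genes, 2.78% to 5.23% were then lower and 1.32% to 2.73% higher. The lowest count of members was that without siNQO1 replicate 2, where Scd2 alone was called.

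**Figure D1:**
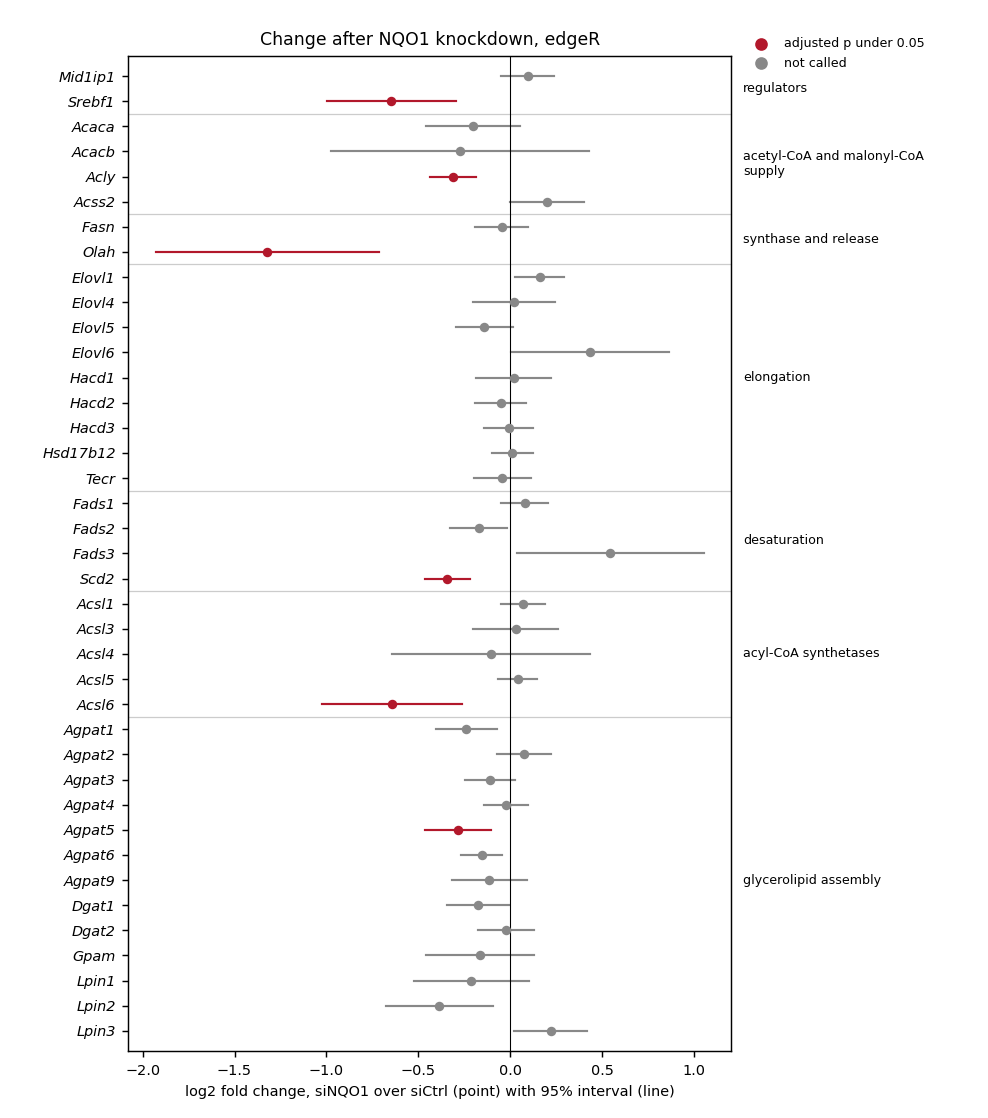
Log2 fold change of the 39 members tested, siNQO1 over siCtrl (horizontal axis), ordered by role, with the point at the edgeR estimate and the line its 95% interval; red marks an adjusted p under 0.05. The 6 red members lie left of 0 in 6 of the 7 roles, from -1.32 (Olah) to -0.29 (Agpat5). None of the 9 elongation genes is red, while 7.38% of all genes tested were lower and 5.27% higher.

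The promoters of the 5 lower members with an entry are shown because their sequence bears on the known control of this pathway by SREBP-1 and by the factors NF-Y and SP1 that bind beside it. They come from RefSeq on the GRCr8 build, a later build than the one the authors aligned to, and span 250 bases before to 50 bases after each annotated start, as 300 bases read 5′ to 3′ on the strand of the gene. Of the 42 member symbols 35 matched the table, and no entry was matched for Fasn, Acaca, Elovl6, Dgat1, Dgat2, Agpat5 or Agpat6. Capitals mark the CCAAT box (CCAAT) and the GC box (GGGCGG), each on either strand. Scd2 lies on the plus strand at chr1:253118127-253118426, Acly on the minus strand at chr10:85963582-85963881, Olah on the plus strand at chr17:79786582-79786881, and Acsl6 on the plus strand at chr10:38951911-38952210. Srebf1 has 2 annotated starts on the minus strand, at chr10:45529115-45529414 and chr10:45518961-45519260, which counts per gene do not separate.
Scd2: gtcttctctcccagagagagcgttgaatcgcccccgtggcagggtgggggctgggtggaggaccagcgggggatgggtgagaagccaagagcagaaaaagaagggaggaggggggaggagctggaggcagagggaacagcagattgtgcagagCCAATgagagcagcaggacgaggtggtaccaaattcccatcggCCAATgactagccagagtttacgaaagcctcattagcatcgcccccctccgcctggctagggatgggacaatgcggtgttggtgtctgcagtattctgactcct
Acly: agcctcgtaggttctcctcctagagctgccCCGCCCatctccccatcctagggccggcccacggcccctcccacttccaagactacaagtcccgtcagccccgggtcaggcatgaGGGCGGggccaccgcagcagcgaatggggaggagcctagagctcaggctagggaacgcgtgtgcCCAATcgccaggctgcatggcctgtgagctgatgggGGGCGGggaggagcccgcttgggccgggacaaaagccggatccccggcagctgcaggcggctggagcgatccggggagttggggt
Olah: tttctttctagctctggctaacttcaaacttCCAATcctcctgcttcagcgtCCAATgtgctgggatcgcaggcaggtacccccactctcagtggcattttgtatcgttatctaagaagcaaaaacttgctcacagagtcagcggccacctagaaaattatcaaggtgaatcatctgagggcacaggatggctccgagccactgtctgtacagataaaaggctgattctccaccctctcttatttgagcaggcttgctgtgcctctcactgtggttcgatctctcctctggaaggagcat
Acsl6: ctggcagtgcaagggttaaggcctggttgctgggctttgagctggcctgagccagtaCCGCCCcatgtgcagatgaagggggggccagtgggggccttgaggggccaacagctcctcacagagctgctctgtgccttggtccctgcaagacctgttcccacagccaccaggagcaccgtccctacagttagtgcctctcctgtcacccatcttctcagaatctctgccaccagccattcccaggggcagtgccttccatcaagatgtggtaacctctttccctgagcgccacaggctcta
Srebf1 start 1: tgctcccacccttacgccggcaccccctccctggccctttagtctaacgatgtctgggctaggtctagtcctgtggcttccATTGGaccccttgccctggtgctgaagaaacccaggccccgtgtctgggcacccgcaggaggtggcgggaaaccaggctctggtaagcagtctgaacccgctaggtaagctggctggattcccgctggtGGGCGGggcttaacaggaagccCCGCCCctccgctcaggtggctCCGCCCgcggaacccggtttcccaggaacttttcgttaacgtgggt
Srebf1 start 2: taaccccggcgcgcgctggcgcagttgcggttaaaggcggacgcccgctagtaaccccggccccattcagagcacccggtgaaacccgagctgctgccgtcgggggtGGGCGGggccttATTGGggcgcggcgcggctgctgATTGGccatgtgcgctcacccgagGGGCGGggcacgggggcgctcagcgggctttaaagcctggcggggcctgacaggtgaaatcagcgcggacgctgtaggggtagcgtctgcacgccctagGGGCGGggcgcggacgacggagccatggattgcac

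Counted from the annotated start, with minus for bases before it, the CCAAT boxes of Scd2 began at -97 and -54, that of Acly at -71, and those of Olah at -219 and -198. Acly also held GC boxes at -220, -135 and -35, and each Srebf1 start held 3. Acsl6 held no CCAAT box and 1 GC box, at -193. A CCAAT box was found for 19 of the 35 members (54.3%), among them 4 of the 5 lower members with a promoter, against 37.5% of all 33469 promoters in the table. A GC box was found for 20 members (57.1%), 3 of them lower, against 33.1% of all promoters. The core of a sterol regulatory element (TCACNCCAC) was found in 0 of the 35 members and in 1.12% of all promoters, and an E-box (CACGTG) in Elovl5 and Hacd3 (5.71%) against 6.42%. With so low a share over all promoters, 0 among 35 is no result about the members. Only this spelling of the element was searched, so sites spelled otherwise would be missed. Main enzymes without an entry, such as Fasn and Acaca, were not searched, so the 0 does not speak for them either. GC boxes may overlap each other or a CCAAT box, although no printed matches do. These are matches of letters in a short window, members with several starts were counted once if any start held the motif whereas the table was counted by promoter, and no binding was measured.

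The regulators differed from each other. Srebf1 (ENSRNOG00000003463, chromosome 10) had 0.57, 0.43 and 0.58 FPKM in siNQO1, against 0.81, 0.86 and 0.82 FPKM in siCtrl. All siNQO1 libraries were below all siCtrl libraries, and the means were 0.527 ± 0.084 and 0.830 ± 0.026 FPKM (SD, n = 3 each). The log2 fold change was -0.65 (SE 0.15, adjusted p = 0.0298). Srebf1 was thus scarce in these cells, with 72 to 117 reads in siNQO1 and 119 to 155 reads in siCtrl. When any library except siCtrl replicate 2 was left out, the adjusted p was 0.0579 to 0.108, and it was 0.050 in limma on log2(FPKM + 0.1). Mid1ip1, whose product promotes the assembly of acetyl-CoA carboxylase into filaments, was far more abundant, at 59.5, 59.2 and 61.1 FPKM in siNQO1 and 55.0, 53.5 and 61.4 FPKM in siCtrl. Its groups overlapped (log2 fold change 0.09, 95% interval -0.05 to 0.24, adjusted p = 0.368).

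Of the enzymes that supply acetyl-CoA and malonyl-CoA, only Acly was called. Acly (ENSRNOG00000016924, chromosome 10) had 28.3, 25.6 and 26.1 FPKM in siNQO1, against 34.2, 33.7 and 32.5 FPKM in siCtrl. The groups lay apart by more than their spread, at 26.7 ± 1.4 and 33.5 ± 0.9 FPKM (SD, n = 3 each), and the log2 fold change was -0.31 (SE 0.055, adjusted p = 0.00901). Without siNQO1 replicate 2 the change was -0.30 and the adjusted p 0.054. Acss2, which makes acetyl-CoA from acetate instead of citrate, pointed the other way with 18.9, 15.3 and 17.1 FPKM in siNQO1 and 16.2, 14.4 and 14.5 FPKM in siCtrl, but the groups overlapped (log2 fold change 0.20, adjusted p = 0.171). Acaca, the cytosolic carboxylase that commits acetyl-CoA to fatty acids, had 1.76, 1.83 and 1.68 FPKM in siNQO1 and 2.11, 2.28 and 1.74 FPKM in siCtrl. The lowest siCtrl library of Acaca lay within the siNQO1 range (log2 fold change -0.20, adjusted p = 0.268). Acacb, the carboxylase at the mitochondrial surface, was near the limit of detection at 0.05 to 0.08 FPKM in siNQO1 and 0.06 to 0.10 FPKM in siCtrl (log2 fold change -0.27, 95% interval -0.97 to 0.43, adjusted p = 0.603).

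Fatty acid synthase and the thioesterase that works on it behaved differently. Fasn had 28.2, 27.7 and 28.2 FPKM in siNQO1 and 31.0, 26.7 and 30.1 FPKM in siCtrl. Its siNQO1 libraries lay inside the siCtrl range, and the 95% interval of the log2 fold change ran from -0.19 to 0.10 around -0.05 (adjusted p = 0.671). Without siCtrl replicate 2, which had the lowest Fasn level of the siCtrl group, the log2 fold change was -0.11 and the adjusted p 0.0334. Fasn was not called with any other library left out, and its adjusted p reached 0.916. Olah (ENSRNOG00000016403, chromosome 17) cleaves growing chains from the synthase early and is best known from the mammary gland, where it yields medium-chain fatty acids. Olah had 0.36, 0.56 and 0.78 FPKM in siNQO1, against 1.60, 1.21 and 1.53 FPKM in siCtrl, from 22 to 56 reads in siNQO1 and 78 to 98 reads in siCtrl. It fell to 39.2% of the siCtrl mean, the furthest of all members (log2 fold change -1.32, SE 0.27, adjusted p = 0.0161). Every siNQO1 library lay below every siCtrl library, although the siNQO1 libraries differed among themselves. Leaving out siNQO1 replicate 2 gave a log2 fold change of -1.33 with an adjusted p of 0.0793, and leaving out siCtrl replicate 3 gave -1.27 with an adjusted p of 0.0638.

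Scd2 (ENSRNOG00000046005, chromosome 1), the stearoyl-CoA desaturase typical of the rodent brain, which turns saturated chains into monounsaturated ones, had the smallest adjusted p of all members. It had 162.8, 156.3 and 160.0 FPKM in siNQO1, against 203.3, 198.0 and 211.3 FPKM in siCtrl, from 29995 to 43295 reads per library. The groups were separated by far more than their spread, with means of 159.7 ± 3.3 and 204.2 ± 6.7 FPKM (SD, n = 3 each). The log2 fold change was -0.34 (SE 0.053, adjusted p = 0.00588), it ran from -0.38 to -0.31 over the 18 alternative settings, and the largest adjusted p among them was 0.0295. Its relative Scd1, the desaturase that prevails in liver and fat, had only 0.79, 0.58 and 0.64 FPKM in siNQO1 and 0.65, 0.74 and 0.91 FPKM in siCtrl (log2 fold change -0.18, adjusted p = 0.572). Scd2 therefore held 99.5% of the summed FPKM of Scd1, Scd2 and Scd4 in siNQO1 and 99.6% in siCtrl, with the limit that close copies of this kind may share reads.

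Of the desaturases of polyunsaturated fatty acids, none was called. Fads1 had 68.0, 69.2 and 70.2 FPKM in siNQO1 and 70.7, 61.9 and 65.7 FPKM in siCtrl, overlapping (log2 fold change 0.08, 95% interval -0.05 to 0.21, adjusted p = 0.405). Fads2, which acts before Fads1 in the same chain of steps, had 40.1, 45.5 and 43.9 FPKM in siNQO1 and 50.8, 45.8 and 50.5 FPKM in siCtrl. The Fads2 groups nearly touched in FPKM, at 45.5 for the highest siNQO1 library and 45.8 for the lowest siCtrl library, and overlapped in CPM, at 72.0 and 71.3 for the same libraries. The change of -0.17 was not called (adjusted p = 0.138). Without siCtrl replicate 2, which was that lowest library, it was -0.22 with an adjusted p of 0.00864. Fads2 was not called with any other library left out, where the adjusted p reached 0.327. Fads3, which desaturates sphingoid bases, had 1.37, 1.2 and 1.06 FPKM in siNQO1, against 0.79, 0.67 and 1.04 FPKM in siCtrl. These groups did not overlap and gave the highest log2 fold change of all members, 0.54, yet from 38 to 76 reads per library the change did not pass (adjusted p = 0.146).

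Each round of elongation needs an elongase of the Elovl family, the reductase Hsd17b12, a dehydratase of the Hacd family and the reductase Tecr, and this machinery was abundant in both groups. Of its 12 rows 9 were tested, of which 0 were lower and 0 were higher, beside 7.38% and 5.27% of all genes tested. With 9 genes and these shares, the 0 is no result about elongation. The smallest adjusted p was 0.116. Hsd17b12 had 118.1, 113.2 and 112.6 FPKM in siNQO1 and 112.5, 118.5 and 113.7 FPKM in siCtrl, and the 95% interval of its log2 fold change was -0.10 to 0.12 around 0.01. Tecr had 211.5, 201.3 and 205.9 FPKM in siNQO1 and 218.6, 195.6 and 228.7 FPKM in siCtrl, with an interval of -0.20 to 0.11 around -0.04. The intervals of both genes leave room for only small changes. Hacd2 led its family with 37.3, 39.5 and 38.97 FPKM in siNQO1 and 39.4, 41.7 and 40.0 FPKM in siCtrl (log2 fold change -0.05, adjusted p = 0.612). Hacd1 and Hacd3 were between 16.9 and 18.9 FPKM in every library, with log2 fold changes of 0.02 and -0.01.

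The elongases themselves went in both directions without a call. Elovl1, which lengthens saturated and monounsaturated chains to the lengths found in sphingolipids, had 100.5, 98.7 and 99.1 FPKM in siNQO1, against 92.8, 83.3 and 93.5 FPKM in siCtrl. Every siNQO1 library exceeded every siCtrl library, but the log2 fold change of 0.16 did not pass (adjusted p = 0.116). Elovl5, an elongase of polyunsaturated chains, had 21.8, 23.4 and 24.3 FPKM in siNQO1, against 25.3, 27.2 and 24.9 FPKM in siCtrl, again without overlap and without a call (log2 fold change -0.14, adjusted p = 0.221). Elovl6, which extends palmitate to stearate, had 3.02, 2.87 and 2.68 FPKM in siNQO1 and 1.57, 2.77 and 2.06 FPKM in siCtrl in the row ENSRNOG00000048949. Its siCtrl replicate 2 reached the siNQO1 levels while the other siCtrl libraries lay below them (log2 fold change 0.43, adjusted p = 0.171). Without that library the log2 fold change of Elovl6 was 0.65 and the adjusted p 0.00457, which made it the 1 higher member in that setting, whereas without siCtrl replicate 1, the lowest library, they were 0.23 and 0.406. Elovl4 had 15.5 to 18.9 FPKM in siNQO1 and 15.7 to 19.3 FPKM in siCtrl (log2 fold change 0.02), and Elovl2 had a total of 1 read over the 6 libraries.

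Among the acyl-CoA synthetases, the least abundant was the called one. Acsl6 (ENSRNOG00000026745, chromosome 10), known from brain for activating polyunsaturated fatty acids, had 0.38, 0.29 and 0.28 FPKM in siNQO1, against 0.51, 0.48 and 0.52 FPKM in siCtrl. These are 68 to 90 reads in siNQO1 and 103 to 129 reads in siCtrl, and the groups did not overlap. The log2 fold change was -0.64 (SE 0.17, adjusted p = 0.0400). It was not called without siNQO1 replicate 2, siNQO1 replicate 3, siCtrl replicate 1 or siCtrl replicate 3, where the adjusted p was 0.148, 0.139, 0.0824 and 0.120, nor by DESeq2 (0.0569) or limma on log2 FPKM (0.0564 with a pseudocount of 1 and 0.0699 with 0.1). Acsl5, the most abundant synthetase of the family, had 64.1, 68.8 and 68.1 FPKM in siNQO1 and 67.2, 64.9 and 65.1 FPKM in siCtrl, with a log2 fold change of 0.04 (95% interval -0.07 to 0.15). Acsl4, which prefers arachidonate and is known for its part in ferroptosis, had 12.5, 11.7 and 10.0 FPKM in siNQO1 and 8.23, 17.8 and 10.98 FPKM in siCtrl. It was the most variable member within siCtrl, and its log2 CPM had an SD of 0.18 in siNQO1 and 0.56 in siCtrl. The highest Acsl4 value was that of siCtrl replicate 2 and the lowest that of siCtrl replicate 1. The log2 fold change was -0.10 with all libraries, 0.25 without siCtrl replicate 2 and -0.35 without siCtrl replicate 1, with no call in any of these (adjusted p = 0.812, 0.127 and 0.318). Acsl1 and Acsl3 changed by 0.07 and 0.03 on the log2 scale and were not called.

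**Figure D2:**
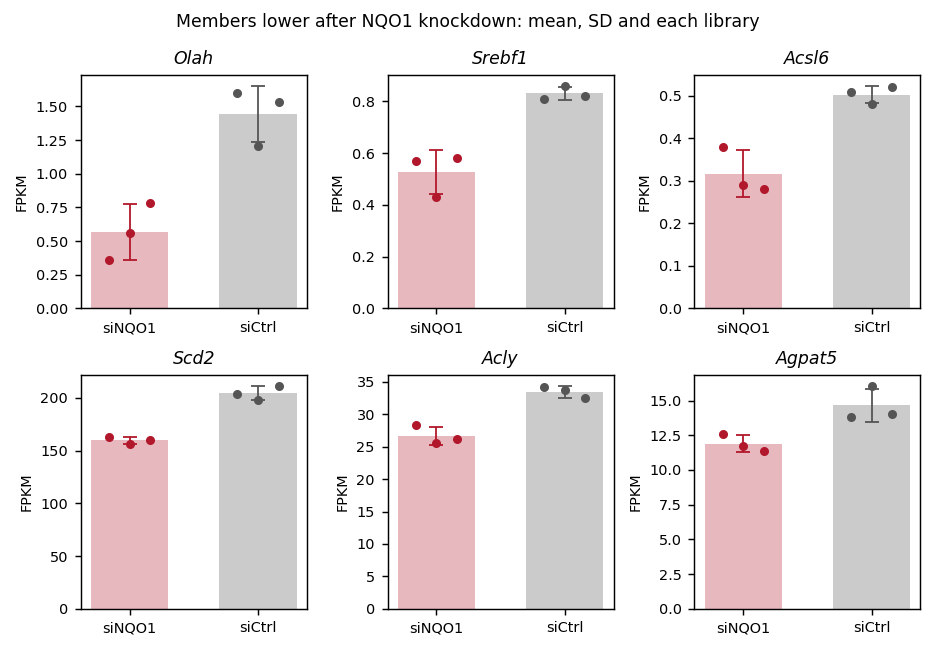
FPKM (vertical axis, from 0, own scale in each panel) of the 6 members called lower, in siNQO1 (left) and siCtrl (right), 3 libraries each; bars are means, lines are 1 SD and points are libraries. In each panel all siNQO1 points lie below all siCtrl points, while the levels range from 0.28 FPKM (Acsl6) to 211.3 FPKM (Scd2).

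Glycerolipid assembly had 13 members, all of them tested, of which 1 was lower and 0 were higher, beside 7.38% and 5.27% of all genes tested. The pathway opens with glycerol-3-phosphate acyltransferases, namely Gpam at the mitochondrion and the genes listed here as Agpat9 and Agpat6, which RefSeq names Gpat3 and Gpat4. Gpam had 1.95, 1.80 and 1.99 FPKM in siNQO1 and 2.41, 1.85 and 2.24 FPKM in siCtrl, with overlap (log2 fold change -0.16, adjusted p = 0.442). Agpat6 had 27.6, 28.0 and 28.4 FPKM in siNQO1, against 33.0, 30.4 and 31.1 FPKM in siCtrl, without overlap but also without a call (log2 fold change -0.16, adjusted p = 0.0736). Without siCtrl replicate 2 the log2 fold change of Agpat6 was -0.18 and its adjusted p 0.00574. When any other library was left out, Agpat6 was not called and its adjusted p reached 0.163. Agpat9 was at 6.31 to 6.89 FPKM in siNQO1 and 6.59 to 7.87 FPKM in siCtrl (log2 fold change -0.11, adjusted p = 0.445).

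The next step, acylation of lysophosphatidic acid, held the called gene Agpat5 (ENSRNOG00000028623, chromosome 16). Agpat5 had 12.6, 11.7 and 11.4 FPKM in siNQO1, against 13.8, 16.1 and 14.0 FPKM in siCtrl. No library overlapped between groups, and the means were 11.9 ± 0.6 and 14.6 ± 1.2 FPKM (SD, n = 3 each). The log2 fold change was -0.29 (SE 0.079), with an adjusted p of 0.0493 just under the threshold. It was 0.0544 to 0.183 when any library except siCtrl replicate 2 was left out, and 0.0502 to 0.0535 with upper-quartile scaling, total counts or the exact test of edgeR. Agpat1 lay just on the other side, with 61.5, 61.1 and 64.7 FPKM in siNQO1 and 75.3, 67.1 and 80.6 FPKM in siCtrl (log2 fold change -0.24, SE 0.073, adjusted p = 0.0652). Agpat1 too had no overlap, and it was called in 7 of the 18 alternative settings, among them DESeq2 (adjusted p = 0.0181) and the fit without siCtrl replicate 2 (log2 fold change -0.31, adjusted p = 0.000264). With any other library left out Agpat1 was not called, and the adjusted p reached 0.181. Agpat2, a close relative of Agpat1 with the same activity, had 68.5, 70.2 and 73.7 FPKM in siNQO1 and 70.5, 62.3 and 70.5 FPKM in siCtrl, which overlapped (log2 fold change 0.08, adjusted p = 0.474). Agpat3 and Agpat4 had log2 fold changes of -0.11 and -0.02 and overlapping groups, and Agpat3 was called only without siCtrl replicate 2 (-0.16, adjusted p = 0.0281).

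Lipins dephosphorylate phosphatidic acid to diacylglycerol, and their 3 genes did not move alike. Lpin3, the most abundant of them here, had 4.4, 4.89 and 4.89 FPKM in siNQO1, against 4.34, 3.96 and 4.01 FPKM in siCtrl. Its siNQO1 libraries were all above its siCtrl libraries by a margin smaller than the spread within siNQO1, and the change of 0.22 was not called (adjusted p = 0.140). Lpin2 had 1.50, 1.74 and 1.27 FPKM in siNQO1, against 2.09, 1.90 and 1.95 FPKM in siCtrl, without overlap and in the opposite direction (log2 fold change -0.39, adjusted p = 0.0845). Without siCtrl replicate 2 it was -0.42 with an adjusted p of 0.0217, and DESeq2 also called it (adjusted p = 0.0456). Lpin2 was not called with any other library left out, where the adjusted p reached 0.213. Lpin1 had 1.51, 1.61 and 1.60 FPKM in siNQO1 and 1.58, 2.18 and 1.75 FPKM in siCtrl, where siCtrl replicate 2 was the highest (log2 fold change -0.21, adjusted p = 0.352, and -0.08 and 0.703 without that library).

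The last step to triglyceride is taken by Dgat1 and Dgat2, unrelated enzymes with the same reaction. Dgat1 had 20.0, 19.9 and 19.9 FPKM in siNQO1, against 24.0, 20.6 and 23.6 FPKM in siCtrl. The siNQO1 libraries were almost equal and all below siCtrl, but siCtrl replicate 2 came close to them and the change of -0.18 was not called (adjusted p = 0.153). Without that library it was -0.25 with an adjusted p of 0.00357. With any other library left out Dgat1 was not called, and the adjusted p reached 0.362. Dgat2 had 8.57, 9.17 and 8.97 FPKM in siNQO1 and 9.44, 8.69 and 9.29 FPKM in siCtrl, and its interval of -0.18 to 0.13 around -0.02 included 0. Over the 13 glycerolipid genes, the median log2 fold change was -0.16, and the median deviation of a library from the siCtrl mean, in log2 CPM, was -0.16, -0.15 and -0.15 in siNQO1, against 0.05, -0.08 and 0.04 in siCtrl. The library nearest to the siNQO1 values was again siCtrl replicate 2. For the 9 elongation genes the same medians were 0.07, -0.01 and -0.05 in siNQO1, against -0.04, 0.04 and 0.01 in siCtrl, which overlapped. Over all genes tested they were 0.01, 0.02 and 0.01 in siNQO1, against 0.01, -0.02 and 0.01 in siCtrl. The difference between these sets of genes was not tested.

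**Figure D3:**
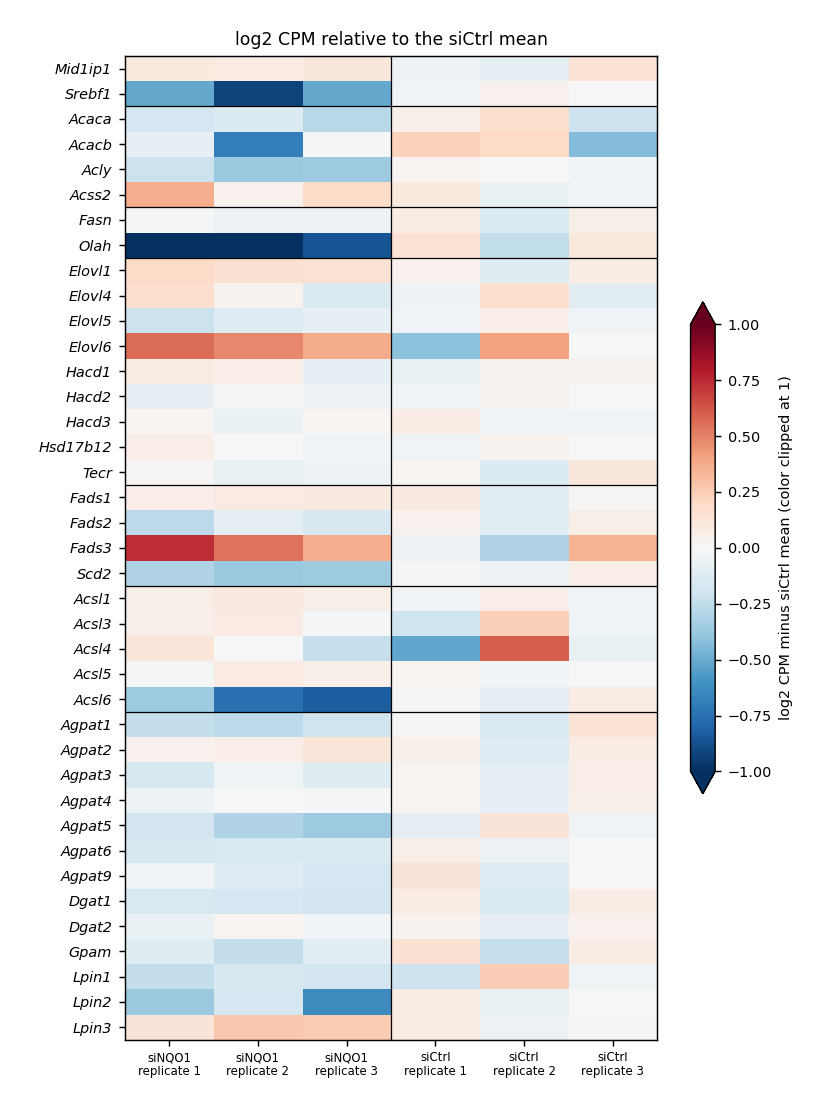
Log2 CPM of each member tested (rows, by role) in the 6 libraries (columns, siNQO1 left, siCtrl right), minus the mean of the 3 siCtrl libraries; blue is lower, red is higher, and color is clipped at 1. Olah, Srebf1 and Acsl6 are blue in all siNQO1 columns, most glycerolipid genes at the bottom are pale blue there, and siCtrl replicates 1 and 2 depart in opposite directions from the siCtrl mean for Acsl4 and Elovl6.

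In level per transcript length, the members ranged widely. Tecr, Scd2, Hsd17b12 and Elovl1 led, with mean levels of 206.2, 159.7, 114.6 and 99.4 FPKM in siNQO1 and 214.3, 204.2, 114.9 and 89.9 FPKM in siCtrl. The order of Tecr and Scd2 was clear in siNQO1, where every Tecr library (201.3 to 211.5 FPKM) exceeded every Scd2 library (156.3 to 162.8 FPKM), but not in siCtrl, where their ranges of 195.6 to 228.7 and 198.0 to 211.3 FPKM overlapped. Behind them, Agpat1, Agpat2, Fads1, Acsl5 and Mid1ip1 lay between 53.5 and 80.6 FPKM in every library, and within each group the ranges of neighbors in order of mean level overlapped, except that of Mid1ip1, the lowest of these. At the low end, Srebf1, Acsl6 and Acacb stayed below 1 FPKM in all libraries, and 2 of these were among the 6 called members. Within siCtrl the libraries varied more than within siNQO1 for 27 of the 39 members, as they did for 73.1% of all genes tested.

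**Figure D4:**
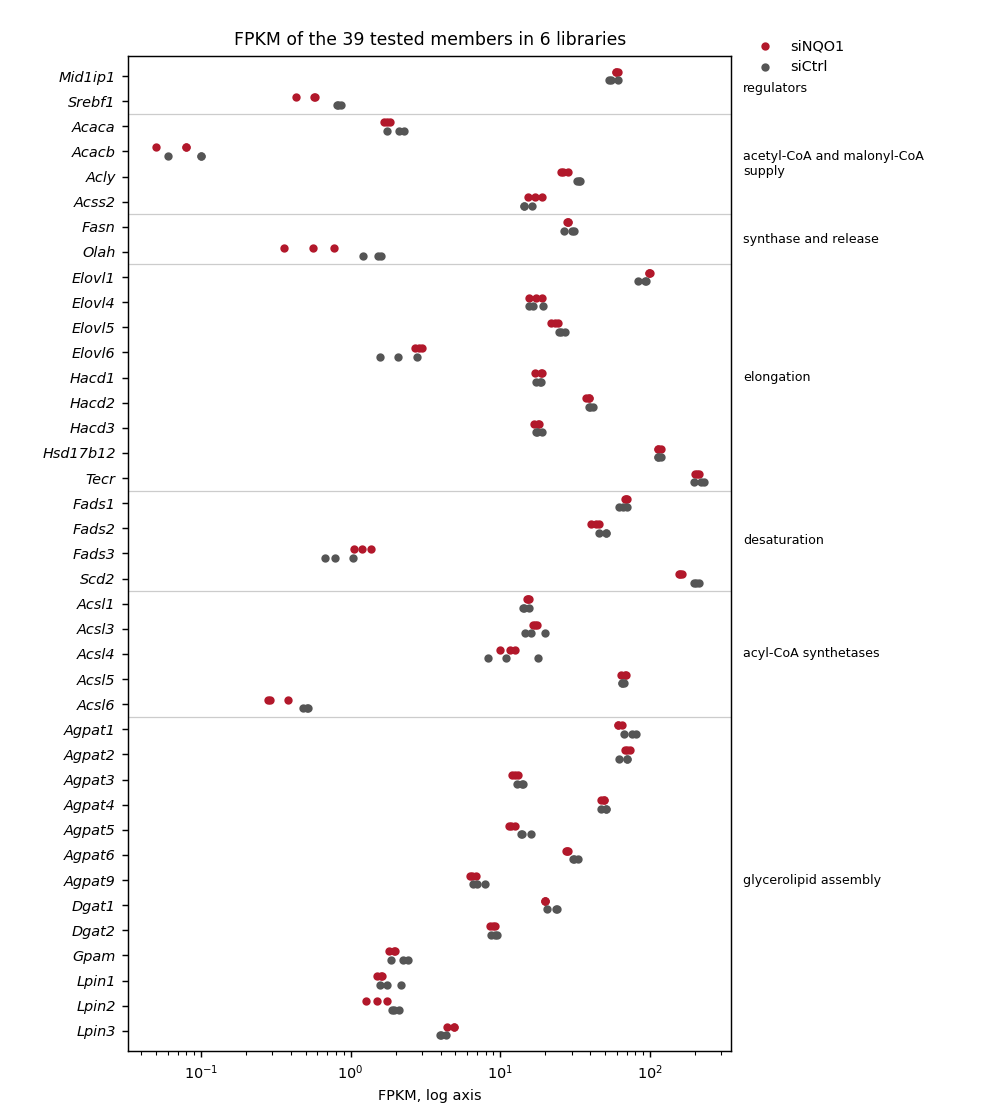
FPKM of the 39 members tested (horizontal log axis), one row per gene ordered by role, with red points for the 3 siNQO1 libraries above gray points for the 3 siCtrl libraries. Levels run from 0.05 FPKM (Acacb) to 228.7 FPKM (Tecr), and the red and gray points of most genes overlap or lie close together.

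Within families, the share of the leading gene in the summed FPKM was compared for 7 families by an exact permutation test, two-sided, which with 3 samples against 3 cannot give a p below 0.10. Lpin3 held 60.6% ± 2.1 of the lipin sum in siNQO1 and 51.8% ± 2.5 in siCtrl, a difference of 8.76 percentage points (SD, n = 3 each, exact p = 0.10). Fads1 held 60.9% in siNQO1 and 56.9% in siCtrl, Elovl1 69.7% and 66.6%, and Agpat1 25.9% and 28.7% in the same order of groups, and for each of these the libraries of the groups did not overlap (exact p = 0.10, adjusted p = 0.175 over the 7 families). Agpat2 accordingly held the highest share of its family in siNQO1, 29.4%, against 26.2% in siCtrl, where Agpat1 led. The shares of Acsl5 (60.4% in siNQO1 and 59.9% in siCtrl, exact p = 0.90), Hacd2 (51.8% and 52.7%, exact p = 0.30) and Scd2 (exact p = 0.50) had overlapping groups. None of the 7 comparisons could pass the threshold in this design.

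**Figure D5:**
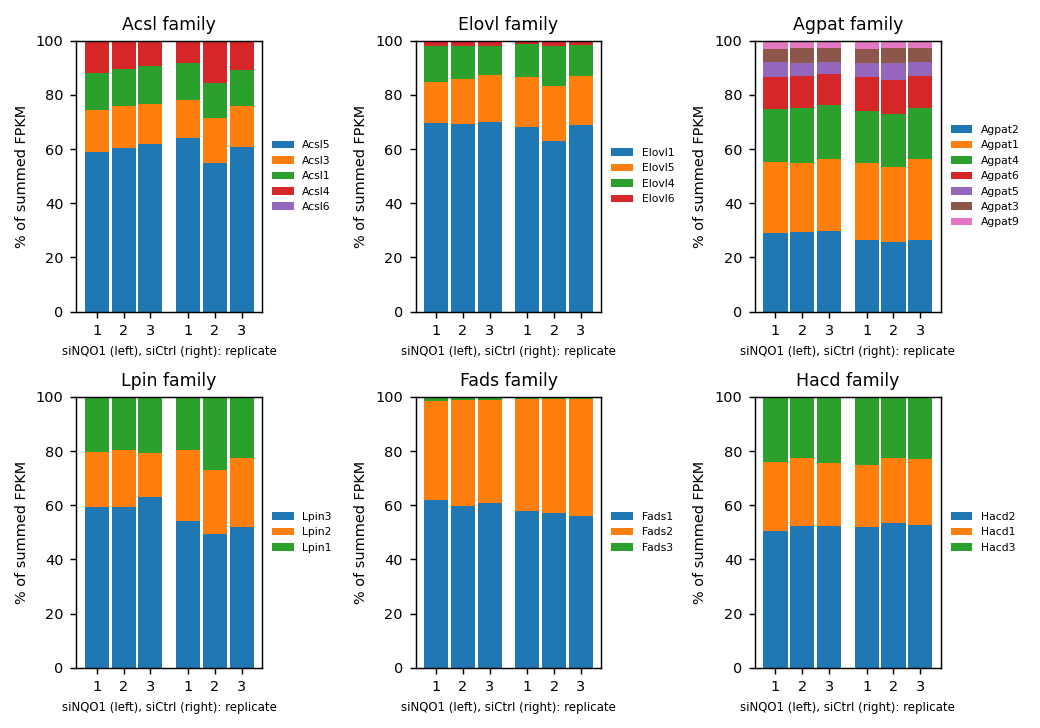
Share of each gene in the summed FPKM of its family (vertical axis, %), one stacked bar per library, siNQO1 replicates at the left and siCtrl replicates at the right of each panel. The bottom segment of the lipin panel, Lpin3, takes 59.3% to 63.0% in siNQO1 and 49.3% to 54.2% in siCtrl, and that of the Acsl panel, Acsl5, overlaps between the groups.

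Other genes of the pathway were taken from 8 lists of 112 names, of which 103 had a row and 79 passed the filter. Of the 79 genes, 3 were lower, 5 were higher and 71 were not called, and their median log2 fold change was 0.04. These counts stand beside the 7.38% of all genes tested that were lower and the 5.27% that were higher, so a few calls in each direction are no result about the lists. Among 12 regulators of SREBP and the liver X receptors, Insig1 was higher and the other 11 were not called. Insig1, which holds SREBP precursors in the endoplasmic reticulum and is itself a known SREBP target, had 22.5, 21.6 and 21.4 FPKM in siNQO1, against 11.1, 13.4 and 12.2 FPKM in siCtrl (log2 fold change 0.85, SE 0.078, adjusted p = 0.000604). Srebf2, the paralog of Srebf1 best known for cholesterol synthesis, was far more abundant than Srebf1 at 20.4, 19.2 and 21.3 FPKM in siNQO1, against 16.2, 17.6 and 18.9 FPKM in siCtrl. It pointed upward without overlap but was not called (log2 fold change 0.22, adjusted p = 0.0773), so that the values of the paralogs lay in opposite directions, a difference that was not tested.

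The remaining calls of these lists were spread over several steps. In the remodeling of phospholipids, Lpcat2, a lysophosphatidylcholine acyltransferase, was higher with 20.4, 20.4 and 20.9 FPKM in siNQO1, against 12.2, 12.8 and 12.4 FPKM in siCtrl (log2 fold change 0.74, SE 0.051, adjusted p = 0.000255). Mboat1, another lysophospholipid acyltransferase, was lower with 8.56, 7.79 and 7.67 FPKM in siNQO1, against 12.6, 11.4 and 11.4 FPKM in siCtrl (log2 fold change -0.55, SE 0.076, adjusted p = 0.00380). The groups of both genes were separated by far more than their spread, and the other 8 acyltransferases tested were not called. Of 16 head group enzymes only Pcyt1b, which activates choline for phosphatidylcholine synthesis, was called, higher at 1.66 ± 0.17 FPKM in siNQO1 against 1.13 ± 0.05 FPKM in siCtrl (SD, n = 3 each, log2 fold change 0.57, adjusted p = 0.0311). Of 8 acyl-CoA thioesterases, which hydrolyze what the synthetases make, Acot13 and Acot9 were higher (log2 fold changes 0.55 and 0.30, adjusted p = 0.0230 and 0.0391). Of 7 other acyl-CoA synthetases and uptake genes, the fatty acid transporter Slc27a4 and the acyl-CoA-binding protein Dbi were lower, both by 0.19 on the log2 scale (adjusted p = 0.0483 and 0.0493). None of the 7 genes of citrate, pyruvate and NADPH supply, the 11 of lipid droplets and triglyceride breakdown or the 8 of mitochondrial fatty acid synthesis was called. With each library left out in turn, the lists had 1 to 8 lower and 2 to 13 higher genes. Of all genes, 2.78% to 16.1% were then lower and 1.32% to 17.2% higher. The highest counts of the lists were again those without siCtrl replicate 2.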

How the data were processed

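Polyadenylated RNA of 6 PC12 samples was sequenced by the authors with a strand-specific paired-end protocol. According to the methods of the study, reads with many ambiguous bases were discarded, adaptors and poor bases were trimmed with the FASTX-Toolkit, and uniquely mapped reads were taken after alignment to RGSC6 with TopHat2. The processing notes of the submitters name bcl2fastq, TopHat2 and edgeR. The deposited counts are whole reads per gene without normalization, and the deposited FPKM values were made by the authors and used as given. Which tool counted the reads, and whether by strand, is not given in the sources used here. Overlapping genes and close copies may therefore share reads.

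Counts were tested in R 4.3.3 with edgeR 4.0.16 (filterByExpr, TMM factors of 0.987 to 1.02, glmQLFit and glmQLFTest, no block), with Benjamini-Hochberg adjustment over 12420 of 18746 genes and a threshold of 0.05. The SE is the log2 fold change divided by the root of the quasi-likelihood F. Log2 CPM had a prior count of 2. Depth, 28873824 to 39467230 reads in genes, limits the members with few reads. The test was tried on simulated data beforehand. The changed genes there had larger folds than most members here, so its power for small changes was not measured. Alternatives were other scalings, filters and edgeR tests, DESeq2 1.42.0, limma 3.58.1 (voom, and log2 FPKM with pseudocounts of 1 and 0.1), a block for the replicate number, and the omission of single libraries. Every member was accounted for, with values in each sample for called members, main enzymes of each step and the leading gene of each family. Members and lists were chosen with earlier results of these data known. Some listed marker genes are not reported here, and splicing was not analysed here.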

Additional observations from a re-analysis of the deposited data

How the results depend on the processing

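Over 18 alternatives, Scd2 was called in 18, Acly in 17, Olah in 16, Srebf1 in 11, Acsl6 in 10 and Agpat5 in 9, always in the lower direction. Between 4 and 8 members were lower under other scalings, filters and tests, with 0 higher, beside 4.82% to 10.8% of all genes lower. With the replicate number as a block, 3 members were lower (Scd2, Acly and Olah) and 0 were higher, beside 5.96% and 4.91% of all genes. Srebf1, Acsl6 and Agpat5 then had adjusted p of 0.0502, 0.0572 and 0.0706. Deviations of same-numbered libraries correlated at -0.038, 0.161 and 0.057, so the numbers were not taken to pair the samples. Leaving out 1 library, which also removes a sample, gave 1 to 13 lower and 0 to 1 higher members. The other lists then had 1 to 8 lower and 2 to 13 higher genes, and their lower count was 1 with upper-quartile scaling. Of all genes, 2.78% to 16.1% were lower and 1.32% to 17.2% higher with 1 library left out. The extremes came without siNQO1 replicate 2 and without siCtrl replicate 2. Signs turned for 8 members that were not called, of which Acsl4 moved the most. Hacd3 was 0.0029 with upper-quartile scaling, and Hsd17b12 was -0.0018 with at least 50 reads in 3 libraries and -0.0032 on both log2 FPKM scales. With single libraries left out, the log2 fold changes ran from -0.034 to 0.059 for Hacd1, -0.075 to 0.104 for Elovl4, -0.034 to 0.027 for Hsd17b12, -0.084 to 0.156 for Acsl3, -0.041 to 0.0090 for Hacd3, -0.347 to 0.248 for Acsl4, -0.065 to 0.0048 for Agpat4 and -0.109 to 0.017 for Tecr. The causes were not tested. Low depth limits Olah, Srebf1, Acsl6, Acacb and Fads3 most.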

Other observations

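In the list of lipid droplet genes, which held no call, Pnpla2, the lipase that opens triglyceride breakdown, had 1.24, 0.14 and 0.15 FPKM in siNQO1 and 0.09, 0.07 and 0.05 FPKM in siCtrl. Its log2 fold change of 2.84 (SE 0.98, adjusted p = 0.0945) rests mainly on siNQO1 replicate 1. Plin2, which coats lipid droplets, had 64.5, 66.3 and 68.8 FPKM in siNQO1 and 73.3, 68.0 and 70.0 FPKM in siCtrl, with overlapping groups (log2 fold change -0.07, adjusted p = 0.397). Insig2, the paralog of Insig1, had 7.82, 9.60 and 8.83 FPKM in siNQO1, against 6.73, 7.50 and 6.73 FPKM in siCtrl, without overlap and without a call (log2 fold change 0.34, adjusted p = 0.0862). Malic enzyme Me1, a source of NADPH for fatty acid synthesis, had 15.7, 14.7 and 14.4 FPKM in siNQO1, against 18.4, 16.1 and 17.2 FPKM in siCtrl, also without overlap and not called (log2 fold change -0.19, adjusted p = 0.105).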
